A study of Mus musculus with 2 samples.

Results

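The nuclear genes for the subunits of the respiratory chain were compared between hepatocytes of oil-injected and CCl4-injected mice. The members were all mRNA entries whose RefSeq identifier belongs to a mouse gene named Nduf followed by a, b, c, s or v and a number, Sdha to Sdhd, Uqcr, Cyc1, Cox4 to Cox8 or Atp5, and a gene with several transcripts was given by the one with the highest mean RPKM. There were 85 such genes among the 20317 genes of the mRNA table. They comprised 37 genes of complex I, 4 of complex II, 9 of complex III, 18 of complex IV and 17 of complex V. The rule for members used the names of the genes and not their values, but it was set with earlier results of these data known.

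RNA-seq was performed on total RNA of primary hepatocytes, with 1 library from mice injected intraperitoneally with oil and 1 library from mice injected with CCl4, a solvent whose metabolism injures hepatocytes and which causes fibrosis when given repeatedly. Both libraries came from wild-type C57BL/6J mice, and the methods give males of 5 weeks of age. The CCl4 mice received 2.5 ml CCl4 per kilogram as a 20% solution in mineral oil, 2 injections per week, for 8 weeks by the labels and 4 weeks by the methods. How many mice went into a library is not given in the sources used here. With 1 library per group there is no replicate check and no test between the conditions, so every difference below describes these 2 libraries. Levels are RPKM, which are reads scaled by transcript length and by the reads of the library, and values under 1 RPKM are listed as 0 in the deposited table. Differences are given on a log2 scale as CCl4 against oil, with 0.1 RPKM added to both levels, so that a negative value means a lower level with CCl4.

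The respiratory chain lies in the inner mitochondrial membrane. Complex I takes electrons from NADH and complex II takes them from succinate, and both hand them through coenzyme Q to complex III, then through cytochrome c to complex IV, where oxygen is reduced. Complexes I, III and IV pump protons, and complex V, the ATP synthase, uses the proton gradient to make ATP. Most subunits are encoded in the nucleus and a few in mitochondrial DNA, whose genes are not among the mRNA entries. Hepatocytes are rich in mitochondria, and CCl4 is known to injure them.

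The depth and the cell content of the libraries set the frame for all values. The smallest steps of RPKM in genes under 400 bases gave 57992625 reads for the oil library and 64655800 for the CCl4 library. The 10689 genes with a value in both libraries had a median difference of 0.30, so that an average gene stood higher with CCl4. The hepatocyte markers were all present, but all 8 were lower with CCl4, from -2.33 for Cyp2e1 to -0.42 for Alb, and their summed level went from 16976.6 to 10241.5 RPKM. Of the 12 stellate cell and myofibroblast markers, 11 had values in both libraries and all 11 were higher by at least 1. The summed level of all 12 was 87.0 RPKM with oil and 974.7 RPKM with CCl4. Pdgfrb, the remaining stellate marker, was listed at 0 with oil. The 7 Kupffer cell markers found summed to 789.7 and 1499 RPKM, the 6 sinusoidal endothelial markers to 424.3 and 709.6 RPKM, the 4 cholangiocyte markers to 13.4 and 25.1 RPKM, and the 5 lymphocyte markers to 12.8 and 21.7 RPKM, with Sox9 and Cd3e listed at 0 in both. The lists were not uniform, since the Kupffer cell marker Clec4f was lower with CCl4 (-0.15) while the other 6 were higher, and of the lymphocyte markers Nkg7 (-0.66) and Cd3g (-0.62) were lower while Cd79a (1.93) and Cd79b (1.59) were higher. The 5 erythroid markers summed to 3202 and 2152 RPKM. In such bulk samples, fewer cells of a type and less RNA per cell cannot be told apart, and the part of these markers in the differences of the respiratory chain was not tested.

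Transcripts of the respiratory chain were lower with CCl4 in nearly every case, by a moderate and similar amount. Of the 85 members, 79 had a value in both libraries, and 75 of these 79 were lower with CCl4, whereas 32.4% of all genes with values were lower. The median difference of the 79 members was -0.46, a ratio of 0.726, against 0.30 for all genes. The quartiles of the members were -0.58 and -0.36, and 62 of the 79 were within 0.25 of the members' median. None of these 79 members differed by a log2 of 1 or more in either direction, whereas 14.3% of all genes were higher and 5.48% lower by that amount (14.4% and 5.3% of all transcripts). Ndufa4l2 and Cox6b2, listed at 0 with oil and above 2 RPKM with CCl4, are outside this count. The members' median level with oil was 87.0 RPKM against 6.18 RPKM for all genes with values, and genes of like level were not compared. At a smaller limit of 1.5-fold, 20 members were lower and 1 was higher, against 12.0% and 31.5% of all genes. When both libraries were scaled to the median mRNA transcript, the members' median became -0.79, 77 of the 79 were lower (51.3% of all genes), and 10 were lower by at least 1 (10.1% of all genes). This scaling lowers a difference by about 0.33, so that small positive differences turn negative.

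**Figure D1:**
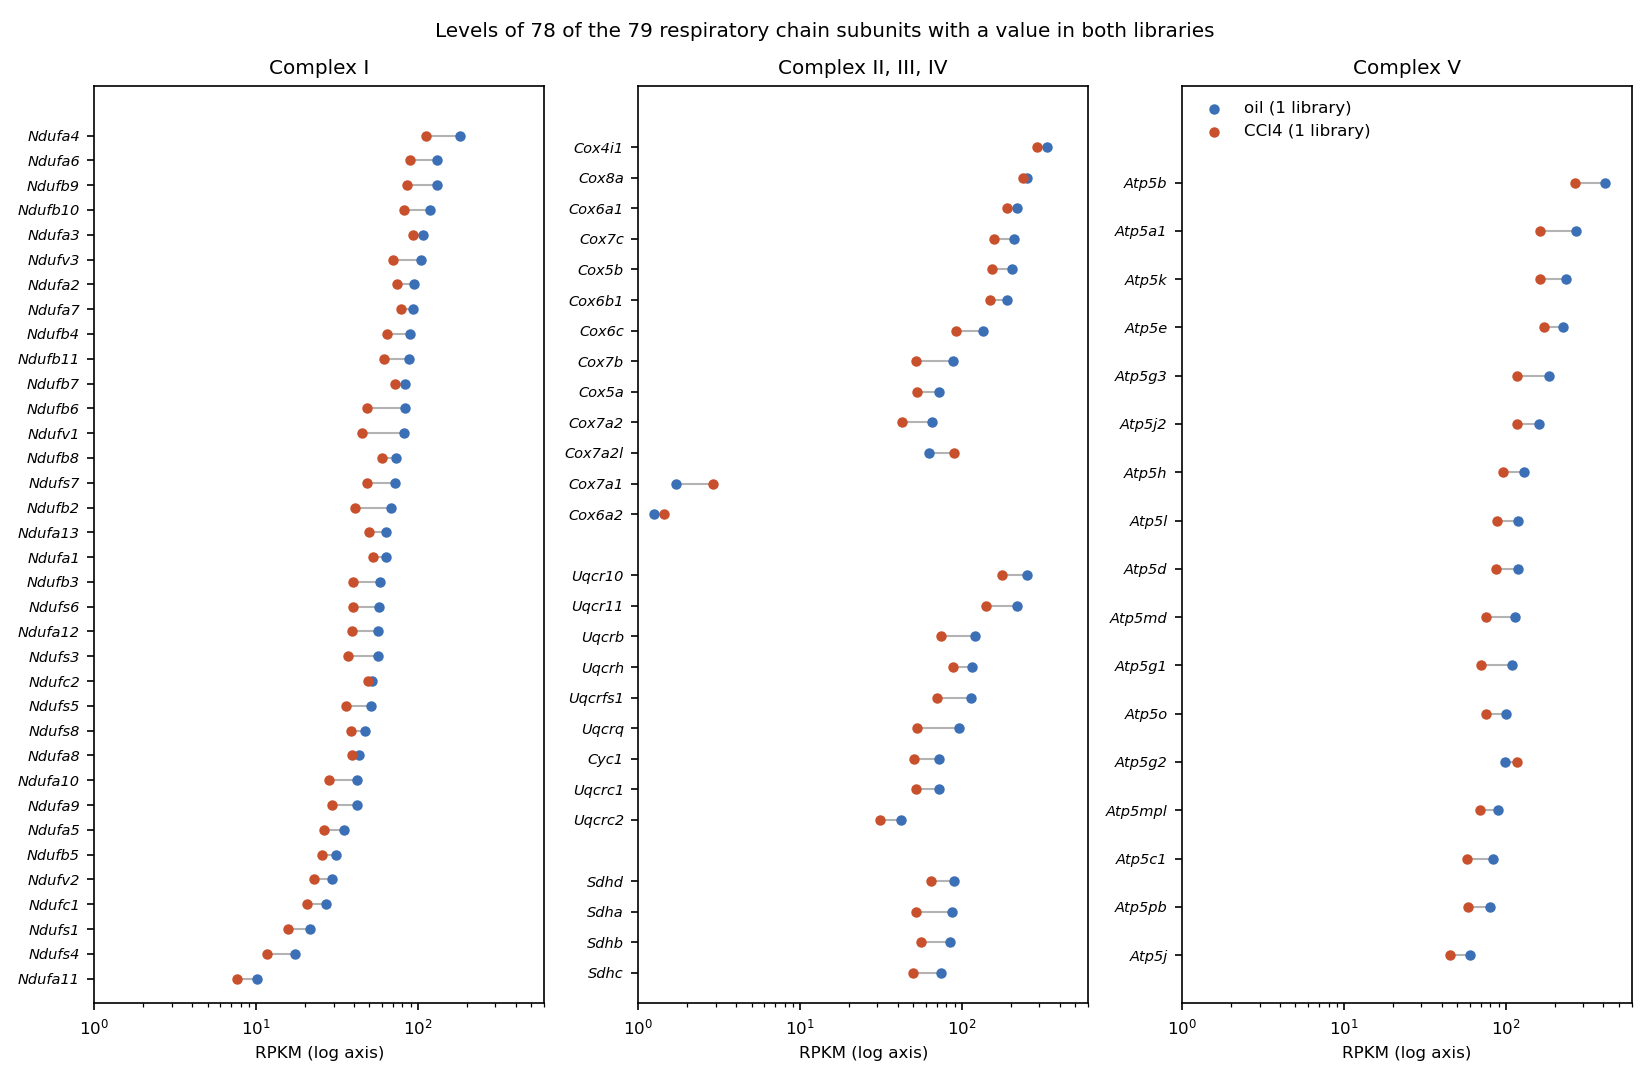
Level of 78 of the 79 subunit genes with a value in both libraries, in RPKM on a log axis, with oil in blue and CCl4 in red, 1 library each. Within each complex the genes are ordered by their level with oil, and the middle panel holds complexes II, III and IV from bottom to top. In 74 genes the CCl4 point lies to the left of the oil point, and Cox7a2l, Cox7a1, Cox6a2 and Atp5g2 show the opposite order.

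Subunit transcripts belong to the abundant mRNAs. The members had a median of 87.0 RPKM with oil and 59.9 RPKM with CCl4, against 6.18 and 7.85 RPKM for all genes with values. Together they made up 1.99% of the summed mRNA RPKM with oil and 1.69% with CCl4. The most abundant member with oil was Atp5b, the catalytic beta subunit of ATP synthase, at 405.9 RPKM, and with CCl4 it was Cox4i1 at 290.7 RPKM. Across the 79 members the difference had a Spearman correlation of -0.20 with the level in the oil library, and of -0.14 over the 77 members with at least 10 RPKM there. This correlation is across genes of the same 2 libraries and is given as a description.

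The reads behind the RPKM could be recovered as lower bounds, which gives the counting error of each ratio. They ranged from at least 18 to at least 8310 reads per member and library. The 95% exact Clopper-Pearson interval of the log2 ratio lay below 0 for 75 members, above 0 for 2 and across 0 for 2. It excluded the members' own median of -0.46 for 45 members, so the spread among subunits was larger than counting error in these. The bounds were below the true count in part of the genes on which they could be checked, which widens the intervals. Such intervals cover counting error only and not the variation between mice or preparations.

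**Figure D2:**
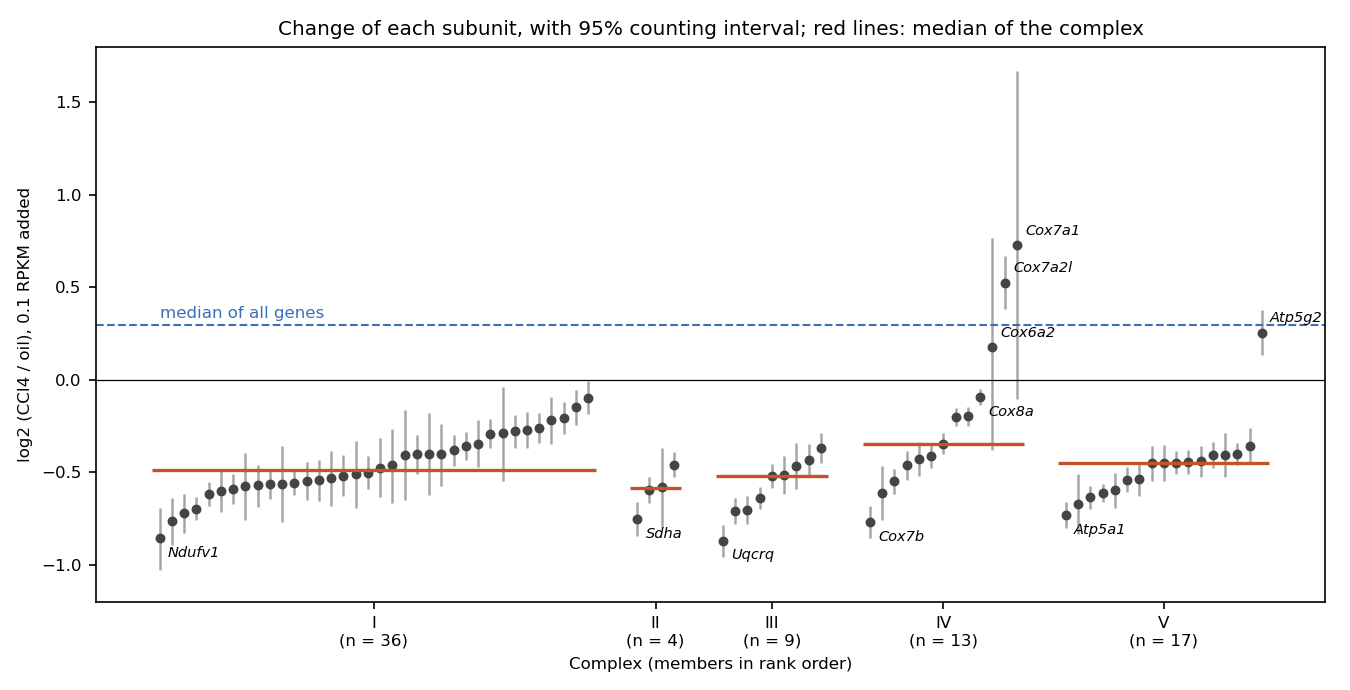
Log2 difference (CCl4 over oil, 0.1 RPKM added) of each of the 79 subunit genes, in rank order within complexes I to V, with the 95% counting interval as a grey bar. The red lines give the median of each complex, from -0.59 (II) to -0.35 (IV), and the dashed blue line the median of all genes at 0.30, above all but 2 of the points.

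Complex I, the NADH dehydrogenase and the largest of the complexes, was lower in all 36 members with values. Its median difference was -0.49, and its summed level was 2474 RPKM with oil and 1786 RPKM with CCl4. The 7 nuclear core subunits, among them those that carry the flavin and the iron-sulfur clusters, had a median of -0.46, and the 28 accessory subunits had a median of -0.49. Among the core subunits the lowest was Ndufv1, which binds NADH and the flavin, at 82.1 RPKM with oil and 45.3 RPKM with CCl4, a difference of -0.86 with a counting interval from -1.03 to -0.69. Its partner Ndufv2 was at 29.4 and 22.6 RPKM, a difference of -0.38. The counting interval of Ndufv2 ran from -0.47 to -0.30 and did not overlap that of Ndufv1.

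The core subunits of the Ndufs series were lower as well. Ndufs1, the largest subunit, was at 21.6 RPKM with oil and 15.6 RPKM with CCl4, a difference of -0.46. Ndufs3 was at 56.4 and 37.1 RPKM, a difference of -0.60. Ndufs7 and Ndufs8, which carry the last clusters before the quinone, went from 71.5 to 48.3 RPKM and from 46.7 to 38.5 RPKM, or -0.57 and -0.28. All of these were therefore lower with CCl4, with Ndufs8 the least so.

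The accessory subunits of complex I, which surround and stabilize the core, showed the same order of difference. The lowest were Ndufb6, at 82.6 RPKM with oil and 48.6 RPKM with CCl4 (-0.76), and Ndufb2, at 67.6 and 40.9 RPKM (-0.72). The least different were Ndufa3, at 107.0 and 92.7 RPKM (-0.21), Ndufa8, at 43.3 and 39.0 RPKM (-0.15), and Ndufc2, at 52.1 and 48.7 RPKM (-0.10). The counting interval of Ndufc2 ran from -0.18 to -0.01. Ndufa8 and Ndufc2 are subunits of the membrane arm, as are Ndufb6 and Ndufb2, so members of the same arm stood at both ends of the range. The remaining accessory subunits, leaving these aside, lay from -0.62 to -0.22. The lowest level among the complex I genes with values in both libraries was that of Ndufa11, at 10.1 and 7.61 RPKM.

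Ndufa4 carries a complex I name but is now regarded as a subunit of complex IV. It was at 181.3 RPKM with oil and 111.8 RPKM with CCl4, a difference of -0.70, and was the most abundant gene counted with complex I. Its paralog Ndufa4l2, which is known to be induced by hypoxia, was listed at 0 with oil and at 3.08 RPKM with CCl4. Since a listed 0 stands for a value under 1 RPKM, no fold change is given. The summed stellate cell markers differed in the same direction (87.0 and 974.7 RPKM). So did the sums of the Kupffer cell, endothelial, cholangiocyte and lymphocyte markers, while the hepatocyte and erythroid sums were lower. The part of these markers in the Ndufa4l2 value was not tested.

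Complex II, succinate dehydrogenase, is shared with the TCA cycle and is encoded in the nucleus alone. All 4 genes were lower with CCl4, and its median of -0.59 was the lowest of the complexes. Sdha, the flavoprotein that oxidizes succinate, was at 87.0 RPKM with oil and 51.6 RPKM with CCl4 (-0.75). Sdhb, the iron-sulfur subunit, was at 83.7 and 55.4 RPKM (-0.59). The membrane anchors Sdhc and Sdhd were at 74.5 and 49.8 RPKM (-0.58) and at 88.5 and 64.4 RPKM (-0.46). In the oil library the 4 transcripts lay close together, between 74.5 and 88.5 RPKM, and with CCl4 they lay between 49.8 and 64.4 RPKM.

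Complex III, which passes electrons from coenzyme Q to cytochrome c, was lower in all 9 members, with a median of -0.52. Uqcrq, a small subunit next to cytochrome b, had the lowest difference of all 79 members, at 95.8 RPKM with oil and 52.4 RPKM with CCl4 (-0.87, counting interval from -0.96 to -0.78). Uqcrfs1, the Rieske iron-sulfur protein, was at 114.1 and 69.8 RPKM (-0.71), and Uqcrb at 119.9 and 73.6 RPKM (-0.70). Cyc1, which is cytochrome c1, was at 72.2 and 50.5 RPKM (-0.51). The core proteins Uqcrc1 and Uqcrc2 were at 71.9 and 52.0 RPKM (-0.47) and at 41.9 and 30.9 RPKM (-0.43). The hinge protein gene Uqcrh differed least, at 114.3 and 88.4 RPKM (-0.37). Thus the range of complex III, from -0.87 to -0.37, held no member near or above 0.

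Complex IV, cytochrome c oxidase, was the most divided complex. Of its 18 genes, 13 had values in both libraries, and 10 of these were lower and 3 higher with CCl4. The median was -0.35, the value nearest to 0 among the complexes. It was -0.41 when only members with a mean of at least 10 RPKM were counted, which left out Cox6a2 and Cox7a1. The 10 ubiquitous subunits were all lower, with a median of -0.42. Cox7b was the lowest at 88.0 RPKM with oil and 51.5 RPKM with CCl4 (-0.77), followed by Cox7a2 at 65.2 and 42.6 RPKM (-0.61) and Cox6c at 134.7 and 92.0 RPKM (-0.55).

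The 3 most abundant subunits of complex IV differed little. Cox4i1, the regulatory subunit that binds ATP, was at 333.4 RPKM with oil and 290.7 RPKM with CCl4 (-0.20). Cox6a1 was at 216.9 and 188.6 RPKM (-0.20), and Cox8a, the smallest subunit, at 253.1 and 237.1 RPKM (-0.09, counting interval from -0.14 to -0.05). The next in level with oil were nearer to the median of the ubiquitous subunits, namely Cox7c at 208.0 and 156.4 RPKM (-0.41) and Cox5b at 204.7 and 152.2 RPKM (-0.43). Cox6b1, on the side of the membrane where cytochrome c docks, was at 188.5 and 148.3 RPKM (-0.35). The counting interval of Cox8a did not overlap that of Cox7b (-0.86 to -0.68), so subunits that enter the same enzyme in equal number differed in their transcripts.

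The tissue-specific forms of complex IV subunits were at the limit of detection. Cox6a2 and Cox7a1, the forms of heart and skeletal muscle, were at 1.26 and 1.43 RPKM and at 1.70 and 2.87 RPKM, with oil and CCl4 in that order. Their counting intervals, from -0.38 to 0.77 and from -0.10 to 1.67, included 0. Scaling to the median mRNA turned Cox6a2 to -0.13. The striated muscle markers Ckm, Acta1, Myh7 and Tnnt2 were listed at 0 in both libraries. Cox6b2, a form of the testis, was listed at 0 with oil and at 2.48 RPKM with CCl4. Cox4i2, Cox7b2, Cox8b and Cox8c were listed at 0 in both.

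Cox7a2l was the exception among abundant members of complex IV. Its product resembles Cox7a2 but is known for joining complex IV to complex III in supercomplexes. It was at 62.3 RPKM with oil and 89.6 RPKM with CCl4, a difference of 0.52 with a counting interval from 0.38 to 0.67, and it remained higher, by 0.20, after scaling to the median mRNA. Its other RefSeq transcript, which can share its reads, was at 58.6 and 84.3 RPKM, also a difference of 0.52. Cox7a2 and Cox7a2l were nearly equal with oil and stood far apart with CCl4. Of the summed RPKM of Cox7a1, Cox7a2 and Cox7a2l, Cox7a2l made up 48.2% with oil and 66.3% with CCl4, whereas Cox7a2 made up 50.5% and 31.6%. The sum itself was 129.2 RPKM with oil and 135.1 RPKM with CCl4.

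Complex V, the ATP synthase, was lower in 16 of its 17 members, with a median of -0.45, and its sum of 2581 RPKM with oil and 1831 RPKM with CCl4 was the largest of the complexes. The 5 genes of the F1 head had a median of -0.54. Atp5a1, the alpha subunit, was at 269.9 RPKM with oil and 162.4 RPKM with CCl4 (-0.73). Atp5b, the catalytic subunit, was at 405.9 and 265.1 RPKM (-0.61), and Atp5c1, the rotating gamma subunit, at 83.6 and 57.6 RPKM (-0.54). The stalk and membrane subunits lay in a narrow range, with a median of -0.44 over 9 genes, from Atp5md at 113.9 and 75.2 RPKM (-0.60) to Atp5mpl at 88.9 and 69.4 RPKM (-0.36). Atp5e, the smallest subunit of the head, was at 225.1 and 170.4 RPKM (-0.40).

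The c subunit of ATP synthase forms the proton-driven ring, and the same mature protein is encoded by Atp5g1, Atp5g2 and Atp5g3. Atp5g1 was at 109.5 RPKM with oil and 70.4 RPKM with CCl4 (-0.64), and Atp5g3 at 185.1 and 116.2 RPKM (-0.67). Atp5g2 was at 98.5 and 117.6 RPKM, a difference of 0.26 with a counting interval from 0.14 to 0.38, which became -0.07 after scaling to the median mRNA. The 3 genes thus diverged, and Atp5g2 went from 25.1% to 38.6% of their summed RPKM, which itself was 393.1 RPKM with oil and 304.2 RPKM with CCl4. In the CCl4 library Atp5g2 and Atp5g3 were at nearly equal levels. The 3 genes share coding sequence, and how reads were assigned between them is not given in the sources used here.

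**Figure D3:**
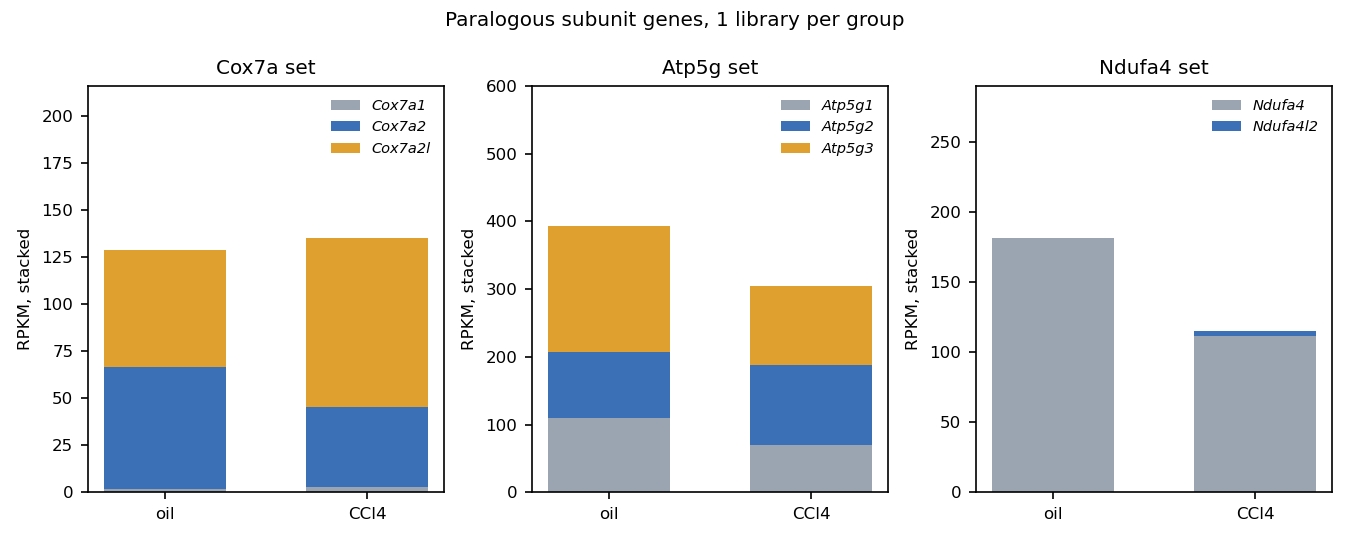
Levels of paralogous subunit genes in the oil and the CCl4 library, as stacked bars in RPKM (linear axes from 0), for the Cox7a, Atp5g and Ndufa4 sets, 1 library per bar. The Cox7a2l part grows from 62.3 to 89.6 RPKM while the Cox7a2 part shrinks from 65.2 to 42.6 RPKM, and Atp5g2 is the only gene of its set with a taller part in the CCl4 bar.

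Promoters of respiratory genes are known for sites of NRF1 (nuclear respiratory factor 1), GABP, YY1 and the estrogen-related receptor ERR alpha, and RefSeq promoters on GRCm38.p6 were searched for them. Each promoter covered 250 bases before and 50 bases after the start, both strands were read, and 68 of the 85 members matched with 73 promoters. The NRF1 motif, the 10 letters in capitals in the sequences that follow, occurred in 5 of the 73 (6.85%), against 0.971% of all 32851 promoters and 2.06% of the promoters of genes with values in both libraries. The YY1 motif AAGATGGCG occurred in 7 (9.59%, against 461 of all 32851 promoters and 3.14% of those with values). The GABP motif CCGGAAGT occurred in 5 (6.85%, against 3.89% and 8.13%), and the ERR alpha motif TCAAGGTCA in 2 (2.74%, against 0.423% and 0.263%). None of the 4 motifs contains another, and a match describes the letters only.

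These stretches are shown because 4 members carry the NRF1 motif before their start while their transcripts differed in opposite directions. The capitals mark the motif, and the sequences run 5′ to 3′ on the strand of the gene, from GRCm38.p6. That of Atp5g2 is chr15:102671048-102671134 on the minus strand, with the motif beginning 42 bases before the start. That of Atp5k is chr5:108434400-108434494 (minus, 50 bases before), that of Cox6a1 is chr5:115349066-115349165 (minus, 162 bases before) and that of Ndufa11 is chr17:56717657-56717756 (plus, 60 bases before).
Atp5g2: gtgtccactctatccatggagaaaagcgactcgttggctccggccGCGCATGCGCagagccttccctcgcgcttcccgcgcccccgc
Atp5k: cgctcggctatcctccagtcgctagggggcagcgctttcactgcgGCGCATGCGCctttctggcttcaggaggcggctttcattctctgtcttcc
Cox6a1: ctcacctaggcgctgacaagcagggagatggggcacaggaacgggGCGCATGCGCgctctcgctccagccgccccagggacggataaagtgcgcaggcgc
Ndufa11: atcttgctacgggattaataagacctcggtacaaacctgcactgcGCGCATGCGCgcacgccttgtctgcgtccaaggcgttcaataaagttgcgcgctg
With the same 10 letters in this window, Atp5g2 was higher (0.26, and -0.07 after scaling), whereas Cox6a1 (-0.20), Ndufa11 (-0.40) and Atp5k (-0.54) were lower. Atp5k, which encodes the e subunit that holds ATP synthase dimers, was at 234.7 RPKM with oil and 161.5 RPKM with CCl4. The motif of the fifth member, Uqcrc1, begins after the start.

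The regulators of respiratory genes were divided in direction. Of 18 such genes found, 17 had values in both libraries, 8 were lower (32.4% of all genes) and 9 higher, none by 1 or more, and the median was 0.13. Scaled to the median mRNA, which shifts all genes alike, 13 of the 17 were lower (51.3% of all genes) and the median was -0.19. Ppargc1a, the coactivator of mitochondrial biogenesis, was listed at 0 in both libraries, which leaves it unmeasured under 1 RPKM. Nrf1 was at 3.75 RPKM with oil and 5.05 RPKM with CCl4 (0.42), and Esrra, which encodes ERR alpha, was the highest of the list at 11.9 and 17.9 RPKM (0.59). Gabpa and Tfam, the factor that packs mitochondrial DNA, were at 6.88 and 6.41 RPKM (-0.10) and at 4.89 and 4.67 RPKM (-0.07). The lowest was Tfb1m, a mitochondrial rRNA methyltransferase, at 2.49 and 1.44 RPKM (-0.75).

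Genes that feed or assemble the chain differed by list. The electron carriers and enzymes of coenzyme Q synthesis had a median of -0.49, with 14 of 17 lower and none past 1. After scaling to the median mRNA, all 17 were lower (51.3% of all genes), and the median was -0.81. By at least 1, 5 of the 17 were then lower (10.1% of all genes). Before scaling, Cycs, which is cytochrome c, was at 29.6 RPKM with oil and 17.7 RPKM with CCl4 (-0.74). The ends of the unscaled list were Coq10b at -0.91 and Coq4 at 0.24. Of the 13 TCA cycle genes, 10 were lower and 1 was lower by at least 1, with a median of -0.37, against 32.4% and 5.48% of all genes. That gene was Fh1, fumarase, at 67.8 and 31.6 RPKM (-1.10), whereas Cs, citrate synthase, was at 25.9 and 27.5 RPKM (0.09, negative after scaling) and Idh3g was highest at 0.32. On the scale of the median mRNA, 12 of the 13 TCA cycle genes were lower and 4 were lower by at least 1, with a median of -0.69. The shares of all genes on that scale were 51.3% and 10.1%. The assembly factors of the complexes, which do not remain in the finished enzymes, had a median of -0.14. Of 45 with values, 30 were lower and 1 was lower by at least 1, the latter a smaller share than over all genes (5.48%). With the scaling to the median mRNA, 44 of the 45 were lower (51.3% of all genes), and their median was -0.46. By at least 1, 6 were then lower (10.1% of all genes), so the smaller share held only without scaling. Unscaled, the assembly factors ran from Sdhaf3 at -1.11 to Sdhaf1 at 0.35, both being factors for complex II.

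Carriers and proton-handling proteins around ATP synthase held the only genes of these lists that were higher by at least 1, namely 3 of 9 with values (14.3% of all genes), and 2 of 9 after scaling to the median mRNA (7.59% of all genes), which left out Ucp2. Slc25a4, an ADP/ATP carrier, was at 15.4 RPKM with oil and 59.8 RPKM with CCl4 (1.95). Atpif1, the inhibitor protein of ATP synthase, was at 29.1 and 81.4 RPKM (1.48), and Ucp2, a carrier of the uncoupling protein family, at 18.3 and 41.4 RPKM (1.17). The major liver ADP/ATP carrier Slc25a5 was the lowest of the list, at 202.5 and 147.1 RPKM (-0.46). Thus the inhibitor of complex V was higher while 16 of 17 complex V genes were lower in the same libraries. The endothelial markers, the stellate cell markers and 6 of the 7 Kupffer cell markers were also higher with CCl4, and their part in these 3 values was not tested.

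Lists of other large protein assemblies were taken by gene name. Among them, the respiratory chain stood nearest to the proteasome, which had 33 of 38 genes lower and a median of -0.34. A name rule can take in genes that are not subunits, such as Psmc3ip (0.49) in the proteasome list. The mitochondrial ribosome, with 65 of 78 genes lower, had a median of -0.25. The cytosolic ribosome stood on the other side, with 76 of 77 genes higher, 1 lower and a median of 0.59. Over all genes, 32.4% were lower. These lists are described side by side without a test, since there is 1 library per group.

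**Figure D4:**
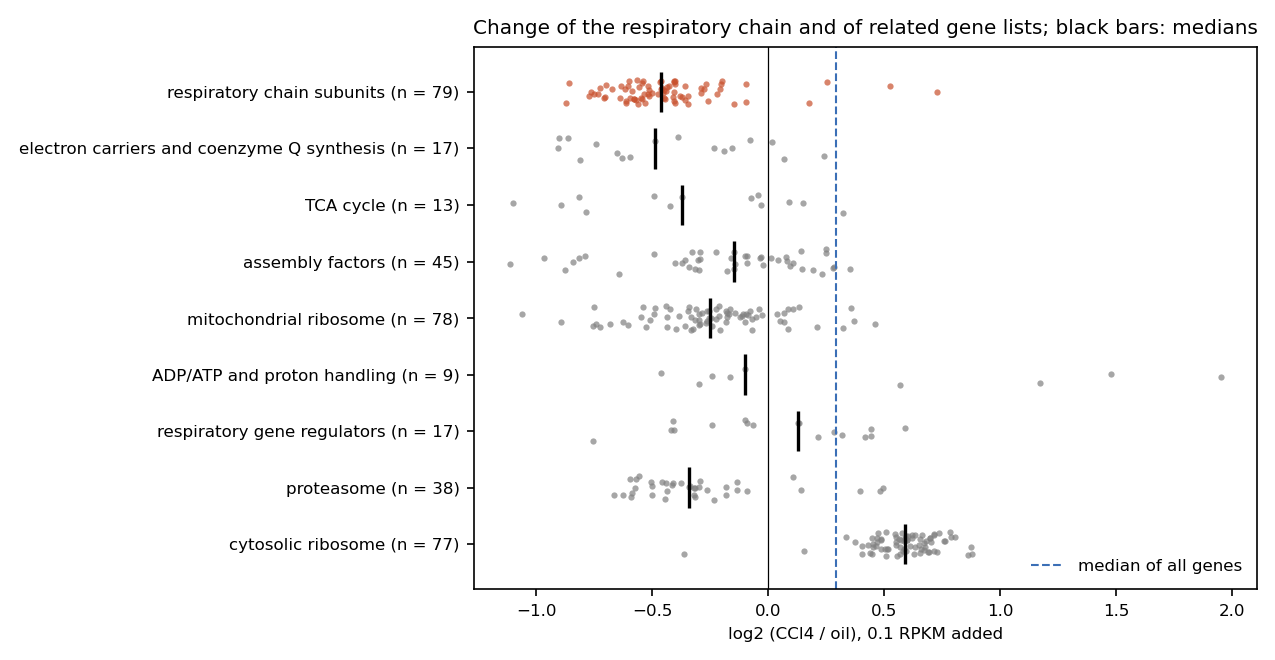
Log2 difference (CCl4 over oil, 0.1 RPKM added) of single genes in the respiratory chain (red) and in related lists (grey), with n the genes that have a value in both libraries. Black bars are medians, from -0.49 for electron carriers and coenzyme Q synthesis to 0.59 for the cytosolic ribosome. The dashed line is the median of all genes at 0.30.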

How the data were processed

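The authors deposited RPKM values for annotated mRNAs and lncRNAs, with values under 1 listed as 0, and, for unannotated lncRNAs, read counts, lengths and RPKM. Their processing notes name CASAVA 1.4, TopHat2 and build mm10, while the counting program and annotation version are not given in the sources used here. Columns of the deposited comparison (fold changes and their significance) were not used. Of 27457 mRNA entries, 27049 matched a symbol through RefSeq GRCm38.p6. Members, gene lists and rules were chosen with earlier results of these data known. Differences are log2((CCl4 + 0.1)/(oil + 0.1)) over entries of at least 1 RPKM in both libraries, called at an absolute value of 1, without a test. The genes named are the 3 highest and 3 lowest of each complex, core subunits, paralog sets and all members listed at 0 in a library. The ends of each pathway list are also named, except for the ribosome and proteasome lists. The values of 1 member are not reported here, although it is in all counts. A few others were named after their values were seen.

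Totals of reads were searched so that RPKM times length gave whole reads (within 0.02) in RefSeq genes under 400 bases, which held for 199 of 207 genes with oil and 212 of 219 with CCl4. The shortest length from 50 to 30000 bases giving whole reads in both libraries then gave lower bounds. On 1443 unannotated lncRNAs with deposited counts, reads were recovered for 1397, exactly for 660 of them (47.2%), and above the deposited count for 0. For that table the totals were 62438205 and 70960848 reads. The recovery was also tested on simulated data. Intervals are exact Clopper-Pearson at 95%. Marker lists were taken from the fixed design, and Cd68 had no entry. Python 3.11.15, numpy 2.4.6, pandas 2.3.3, scipy 1.17.1 and matplotlib 3.10.9 were used.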

Additional observations from a re-analysis of the deposited data

How the results depend on the processing

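No paired analysis was possible because each group holds 1 library, and no replicate could be left out. With the median mRNA as the scale, the medians were -0.79 for all members and -0.81, -0.91, -0.84, -0.67 and -0.78 for complexes I to V, and 10 members were lower by at least 1. Leaving the 10 most abundant transcripts out of the library size gave -0.51 for all members and -0.54, -0.64, -0.57, -0.40 and -0.50 for complexes I to V. The median of complex IV was -0.41 with a mean of at least 10 RPKM, -0.27 with listed 0 taken as 0 RPKM, and -0.38 with Ndufa4 counted there, an alternative added after seeing the data. Listed 0 taken as 0 gave 2 members higher by at least 1. At 1.5-fold, 1 member was higher and 20 were lower. On the recovered reads, a two-sided Fisher's exact test at an adjusted p of 0.05 says only how these 2 libraries differ, and it called 2 higher and 75 lower, against 43.7% and 19.2% of 10689 genes. The other 41 values of these results stayed close to the main ones, and no median of the members or of a complex changed sign under these settings. Scaling to the median mRNA and leaving out the 10 most abundant transcripts both moved the medians further below 0. The summed mRNA RPKM was itself lower with CCl4, at 418201 with oil and 360576 with CCl4. As shares of that sum, the members went from 1.99% to 1.69% and complex IV from 0.438% to 0.418%. Single genes were not rescaled to that sum. The median of the regulators, 0.13, became -0.19 with the median mRNA as the scale, and 2 instead of 3 genes of the ADP/ATP and proton handling list were higher by at least 1. On that scale, more genes were lower by at least 1 in other lists. These were 5 instead of 0 electron carriers and coenzyme Q genes, 4 instead of 1 TCA cycle genes and 6 instead of 1 assembly factors. Among single members, 160 values under 3 alternatives stayed within their counting error and 77 moved, and Cox6a2 and Atp5g2 changed sign after scaling to the median mRNA. The cause of the differences between scalings was not tested. Low depth limits Cox6a2 and Cox7a1, and the listing of values under 1 RPKM as 0 limits 6 members.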

Other observations

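Some subunit genes have further entries whose values were not part of the comparison. Ndufv3, an accessory subunit of complex I, has a pair of transcripts, of which NM_001083891 was at 104.2 RPKM with oil and 69.8 RPKM with CCl4 (-0.58) and NM_030087 at 36.8 and 28.8 RPKM (-0.35). The transcripts of Atp5c1, Atp5g1, Ndufs1 and Ndufs8 differed alike within each gene (for example -0.53 and -0.54 in Atp5c1). The pseudogene Ndufs5-ps, listed among the lncRNAs, was at 26.4 and 18.4 RPKM (-0.52), the same difference as Ndufs5 (51.0 and 35.6 RPKM), and reads could be split between the gene and its copy. A noncoding transcript of Ndufs6 was at 51.0 and 35.4 RPKM (-0.53), beside 57.0 and 39.4 RPKM (-0.53) for its mRNA. Counting Ndufs5-ps, the annotation holds 21 names of the same pattern, mostly pseudogenes, that have no entry in the mRNA table.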
